A study of Homo sapiens with 8 samples.

Results

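NKX2-1 and the 9 genes that flank it on chromosome 14 were followed across 8 clones of RPMI-8402, a cell line from T-cell acute lymphoblastic leukaemia (T-ALL). The genes were chosen by symbol. They are NKX2-1, its antisense transcript NKX2-1-AS1, and SFTA3, NKX2-8, PAX9, MBIP, SLC25A21, FOXA1, BRMS1L and RALGAPA1, which makes 10 of the 61228 symbols in the deposited table of read counts. The study sequenced RNA from 4 knockout (KO) clones, C12, C15, S04 and S36, in which NKX2-1 had been knocked out, and from 4 wild-type (WT) clones, WT10, WT13, WT28 and WT30. All 8 came from the same parental line, were grown in the same serum-supplemented medium and were untreated. Each library is 1 clone. The kind of edit, its place in the gene, and what divides the C-named from the S-named clones are not stated in the sources used here. The p-values below measure only how far these clones vary, and some of that variation may be technical.

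NKX2-1 (also called TTF-1) is a homeobox transcription factor of the NK2 class. It directs development of the lung, the thyroid and the ventral forebrain, where it switches on surfactant and thyroid hormone genes. Normal T cells do not use it, but chromosome rearrangements and other lesions place it under foreign control in a subset of T-ALL. Several neighbours are transcription factors of the endoderm: NKX2-8 is a related NK2 factor, PAX9 a paired-box factor of the pharyngeal pouches and thymus, and FOXA1 a forkhead pioneer factor. The others have general roles in the cell, and SFTA3 (surfactant associated 3) is named for its link to lung surfactant.

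On the hg38 build, in GENCODE release 29, NKX2-1 lies on the reverse strand at chr14:36516392-36521149. NKX2-1-AS1 runs the other way across its start, at chr14:36519278-36523016, and its exons overlap 402 of the 3165 exonic bases of NKX2-1. SFTA3 lies just beyond the 3′ end of NKX2-1, on the same strand, at chr14:36473288-36513829. The exons of both NKX2-1 and SFTA3 overlap those of a further transcript on that strand, AL132857.1, by 54 and 981 bases. The sources used here do not say whether counting used the strand or how shared exons were assigned, so reads from NKX2-1 and NKX2-1-AS1 may not be told apart in the shared bases. SFTA3 and NKX2-1 share no exon in GENCODE 29, but RefSeq gives them a start in common, so SFTA3 counts and any ratio to them depend on which annotation the authors counted with. On the side of lower coordinates follow MBIP, whose start lies 200.5 kb from that of NKX2-1, then BRMS1L at 694.8 kb and RALGAPA1 at 711.8 kb. On the side of higher coordinates lie NKX2-8 at 61.5 kb, PAX9 at 136.4 kb, SLC25A21 at 651.7 kb and FOXA1 at 1074.9 kb. The last exons of PAX9 and SLC25A21 overlap on opposite strands by 481 bases. Exons of BRMS1L and FOXA1 overlap those of AL162311.3 and TTC6 on the other strand by 341 and 16 bases.

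The start regions of 4 transcripts are shown because NKX2-1 has more than 1 annotated start and transcripts of its neighbours begin within or beside it. RefSeq (GRCh38.p14) gives 13 windows for the 10 genes, 12 of them distinct, each from 250 bases before to 50 after a start. NKX2-1 has 2 of them, and its downstream window is also the first window of SFTA3. The capitals mark matches to letters that were chosen with these sequences in view and searched on both strands: CACTCAAG, the site NKX2-1 is known to bind in thyroid and lung promoters, TGTGGT, the core of RUNX sites, and TGTTTAC, the core of FOXA sites. Each is written 5′ to 3′ on the strand of its gene.
NKX2-1 upstream start, chr14:36520183-36520482, reverse strand: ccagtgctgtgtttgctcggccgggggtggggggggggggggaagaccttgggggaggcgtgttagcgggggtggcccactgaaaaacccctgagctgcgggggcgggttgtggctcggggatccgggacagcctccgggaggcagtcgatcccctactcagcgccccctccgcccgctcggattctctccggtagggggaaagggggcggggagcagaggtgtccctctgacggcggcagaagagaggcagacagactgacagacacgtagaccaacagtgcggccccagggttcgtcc
NKX2-1 downstream start and SFTA3 first start, chr14:36519507-36519806, reverse strand: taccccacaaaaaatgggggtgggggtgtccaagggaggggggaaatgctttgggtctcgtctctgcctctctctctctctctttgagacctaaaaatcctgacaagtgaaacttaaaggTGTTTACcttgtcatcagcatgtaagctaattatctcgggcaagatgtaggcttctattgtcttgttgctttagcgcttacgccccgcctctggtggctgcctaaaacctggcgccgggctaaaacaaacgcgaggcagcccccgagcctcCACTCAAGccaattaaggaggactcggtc
NKX2-1-AS1 start, chr14:36519028-36519327, forward strand: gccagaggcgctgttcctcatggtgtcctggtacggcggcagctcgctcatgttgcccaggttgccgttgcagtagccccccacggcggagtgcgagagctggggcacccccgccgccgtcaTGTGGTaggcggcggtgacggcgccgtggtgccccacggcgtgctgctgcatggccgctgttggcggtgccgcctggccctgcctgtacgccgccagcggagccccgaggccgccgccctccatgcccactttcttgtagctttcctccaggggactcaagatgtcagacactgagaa
FOXA1 start, chr14:37595200-37595499, reverse strand: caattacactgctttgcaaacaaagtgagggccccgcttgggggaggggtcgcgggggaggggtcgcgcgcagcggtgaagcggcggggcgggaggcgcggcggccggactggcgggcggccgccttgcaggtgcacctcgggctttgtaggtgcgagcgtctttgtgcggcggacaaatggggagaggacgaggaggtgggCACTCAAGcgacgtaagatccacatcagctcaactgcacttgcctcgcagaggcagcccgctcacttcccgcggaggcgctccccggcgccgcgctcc

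The letters CACTCAAG stood in 2 of the windows: in the window shared by NKX2-1 and SFTA3, 21 bases after the start, and in that of FOXA1, 48 bases before it. They occur in 0.724% of the 34943 distinct human windows in the same table. TGTTTAC stood once, in the shared window of NKX2-1 and SFTA3, against 3.42% of all windows. TGTGGT stood in the windows of NKX2-1-AS1, MBIP and RALGAPA1, against 13.1% of all windows. The upstream window of NKX2-1 held none of these letters. A match describes the sequence and does not show that a factor binds there.

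The clones carried the T-lineage RNA their label calls for and little of other lineages. The 12 T-lineage markers summed to between 1687 and 2165 CPM (the usual unit of counts scaled by library total, here TMM-adjusted) in KO clones and between 1668 and 2045 CPM in WT clones, and none was at 0 in every clone. Of the 11 tested, 0 were called by edgeR or limma-voom and 2 by DESeq2 (3.6% of all genes), the surface glycoproteins CD5 and CD7, with log2 fold changes of -0.76 and -1.19 in KO over WT clones. TAL1 and LMO1, oncogenes of this kind of T-ALL, had -0.22 and -0.47 (edgeR adjusted p = 0.588 and 0.289). The 7 myeloid markers summed to at most 1.87 CPM in KO clones and 0.708 CPM in WT clones, with LYZ, CD33 and ELANE at 0 throughout. The 7 B-cell markers summed to between 7.305 and 14.5 CPM in KO clones and between 10.3 and 17.3 CPM in WT clones, with MS4A1 at 0. Library totals ran between 2730285 counts in C15 and 25423215 in C12 among KO clones, and between 18453947 and 22916424 among WT clones. Where a gene had 0 counts its level could still have been as high as 3 counts, or 1.21 CPM in C15, between 0.116 and 0.229 CPM in the other KO clones, and between 0.133 and 0.160 CPM in WT clones. Mitochondrially encoded RNA took 21.2% of counts in C15 and between 14.8% and 18.5% in the other KO clones, against between 12.9% and 15.1% in WT clones. Whether depth or this share plays a part in the results on C15 was not tested.

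NKX2-1 RNA was abundant in some KO clones and low in others, while the WT clones lay close together. Its level was 72.0 CPM in C12, 11.3 CPM in C15, 83.6 CPM in S04 and 33.4 CPM in S36, against 56.4 CPM in WT10, 63.2 CPM in WT13, 53.6 CPM in WT28 and 54.3 CPM in WT30. C12 and S04 stood above all 4 WT clones, and C15 and S36 below all 4, so the KO clones surrounded the WT clones. The KO mean was 50.1 ± 33.6 CPM and the WT mean 56.9 ± 4.396 CPM (SD, n = 4 each). The value of C15 rests on 28 counts, whose 95% Poisson interval is 7.51 to 16.3 CPM and covers counting error only. RNA of an edited gene need not be lost, so this level checks the genotype label only where the edit removes or destabilises transcript, and the counts do not show the edit itself. In a culture, fewer cells expressing a gene and less RNA per cell cannot be told apart.

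Taken over 4 clones against 4, no gene of the locus passed the test. NKX2-1 had a log2 fold change of -0.15 (SE 0.42) and an adjusted p of 0.905 in the edgeR quasi-likelihood test, which is adjusted over all 14243 genes tested with a threshold of 0.05. Of the 10 genes, 9 had a count in at least 1 clone and 8 passed the filter on low counts, NKX2-8 and SLC25A21 being the others. None of the 8 was called by edgeR, against a background of 0.316% of all genes. None was called by DESeq2 or limma-voom, where 3.6% and 0.66% of all genes were, and none had an unadjusted edgeR p under 0.05, against 15.5% of all genes. In none of the 8 did the KO clones stand apart from the WT clones without overlap, which held for 10.1% of all genes. The median log2 fold change of the 8 was -0.0094, beside 0.020 over all genes tested. An exact two-sided permutation test on log2 CPM of NKX2-1, over the 70 ways to assign 4 and 4 clones, gave p = 0.543, where the smallest p it allows is 0.0286. The direction of the NKX2-1 difference rested on C15 and S36. Without C15 the log2 fold change was 0.14, and without S36 it was 0.017.

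**Figure D1:**
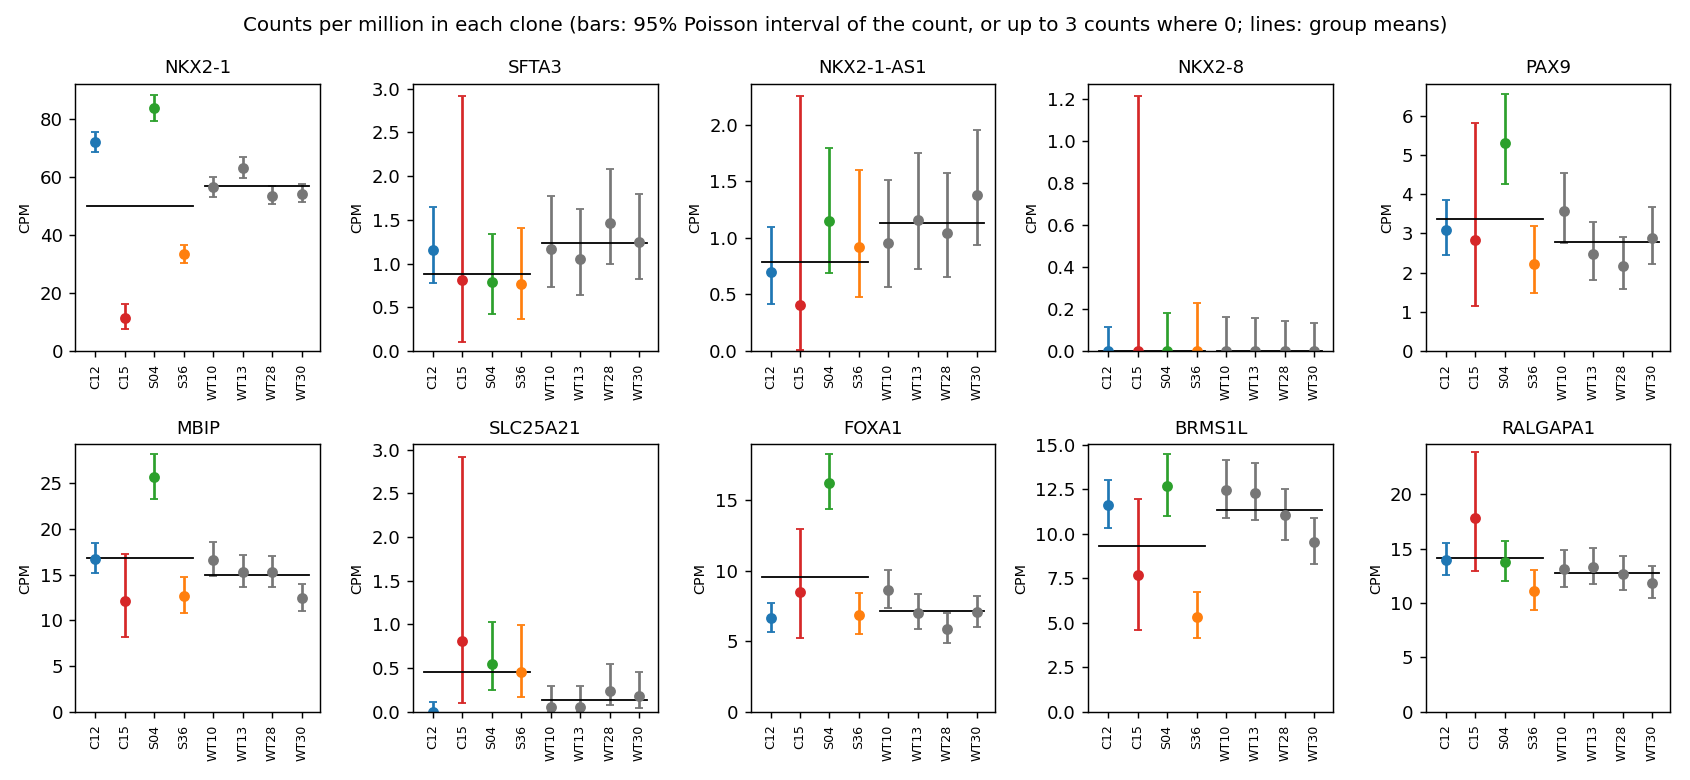
CPM (vertical axes, from 0) of each of the 10 genes in the 4 KO clones (coloured points) and the 4 WT clones (grey points), with bars for the 95% Poisson interval of the count and black lines for group means. NKX2-1 lies at 72.0, 11.3, 83.6 and 33.4 CPM in the KO clones and between 53.6 and 63.2 CPM in the WT clones. NKX2-8 is at 0 in all 8, where the bars reach the level of 3 counts.

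Set against the WT clones one at a time, 3 KO clones differed in NKX2-1, and not in 1 direction. Each lone clone is assumed to vary as WT clones do, since the spread of this fit comes from the 4 WT clones alone. The test therefore says whether a clone lies outside the WT spread, not what a knockout does. NKX2-1 was lower in C15 (log2 fold change -2.33, edgeR adjusted p = 0.000341, SE 0.22) and in S36 (-0.77, edgeR adjusted p = 0.0030, SE 0.14). It was higher in S04 (0.56, edgeR adjusted p = 0.0077, SE 0.13). In C12 its log2 fold change of 0.34 (SE 0.13) missed the threshold (edgeR adjusted p = 0.277).

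The other genes called differed from clone to clone. In C12, edgeR called 0 of the 8, against 0.835% of all genes, and DESeq2 and limma-voom also called 0, against 2% and 0.779%. NKX2-1 alone had an unadjusted p under 0.05 there, as had 12.7% of all genes. In C15, NKX2-1 was the only one of the 8 called, and it was lower. Of all genes 18% were called in C15 and 10.9% were called as lower. In S04, NKX2-1, MBIP and FOXA1 were called, all higher, where 32.8% of all genes were called and 15.6% were called as higher. In S36, NKX2-1 and BRMS1L were called, both lower, where 29.3% of all genes were called and 15.6% were called as lower. With so large a share of all genes past the threshold, 3 and 2 of 8 are near the background of those clones. DESeq2 and limma-voom called the same genes, except that limma-voom also called PAX9 in S04. Their shares of all genes were 19.8% and 4.77% for C15, 26.4% and 31% for S04, and 23.2% and 25.1% for S36.

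**Figure D2:**
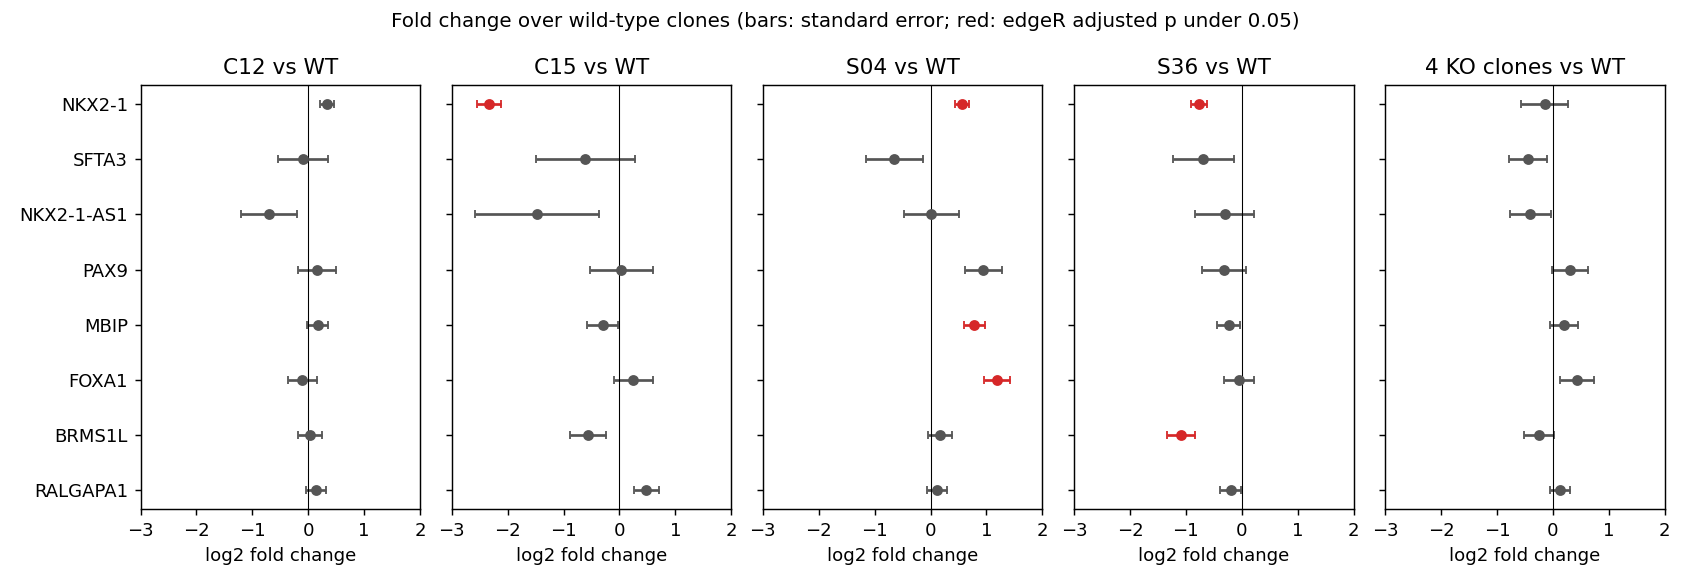
Log2 fold change (horizontal axes) of the 8 tested genes in C12, C15, S04, S36 and all 4 KO clones over the WT clones, with bars for the standard error and red for an edgeR adjusted p under 0.05. NKX2-1 is red at -2.33 (C15), 0.56 (S04) and -0.77 (S36), and no gene is red in C12 or over all 4 KO clones.

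KO clones that share a letter in their names differed from each other in NKX2-1. These comparisons were added after the data were seen, and use the same spread between WT clones. NKX2-1 was lower in C15 than in C12, by a log2 difference of -2.67 (edgeR adjusted p = 0.000503, SE 0.24), and none of the other 7 genes was called. Of all genes 12.7% were called between these clones and 8.12% were lower in C15. DESeq2 and limma-voom also called NKX2-1 alone among the 8, beside 16.3% and 2.81% of all genes. S36 was below S04 in 4 genes: NKX2-1 (-1.32, edgeR adjusted p = 0.0013, SE 0.17), BRMS1L (-1.24, SE 0.30, adjusted p = 0.0168), FOXA1 (-1.24, SE 0.32, adjusted p = 0.0236) and MBIP (-1.02, SE 0.25, adjusted p = 0.0183). Between these clones 19.9% of all genes were called and 10.3% were lower in S36. DESeq2 and limma-voom called the same 4, beside 17.2% and 15.8% of all genes. Between the C-named and the S-named clones, NKX2-1 had a log2 fold change of -0.40 (edgeR adjusted p = 0.784, SE 0.62). None of the 8 genes was called by edgeR, DESeq2 or limma-voom there, against 0.358%, 4.87% and 0.625% of all genes. None had an unadjusted p under 0.05, against 17.1% of all genes.

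The spread of NKX2-1 between KO clones was wide beside that between WT clones. The SD of its log2 CPM was 1.32 over the KO clones and 0.11 over the WT clones. Among the KO clones it exceeded the SD of 91.5% of the 14243 genes tested, and of 99.1% of the 3529 genes whose mean level lay within 1 log2 unit of its own. The other 7 genes had SDs between 0.25 (SFTA3) and 0.59 (FOXA1) over the KO clones, and between 0.074 (RALGAPA1) and 0.30 (PAX9) over the WT clones. Among genes of like level, the KO SDs of BRMS1L, FOXA1 and MBIP were above those of 66.1%, 65.8% and 63.5%. Those of PAX9, NKX2-1-AS1, RALGAPA1 and SFTA3 were above 37.8%, 26.7%, 23.3% and 3.68%. The SD of each of the 8 genes was larger over the KO than over the WT clones. The totals of the KO libraries also varied more than those of the WT libraries, and the part of depth in these spreads was not tested.

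**Figure D3:**
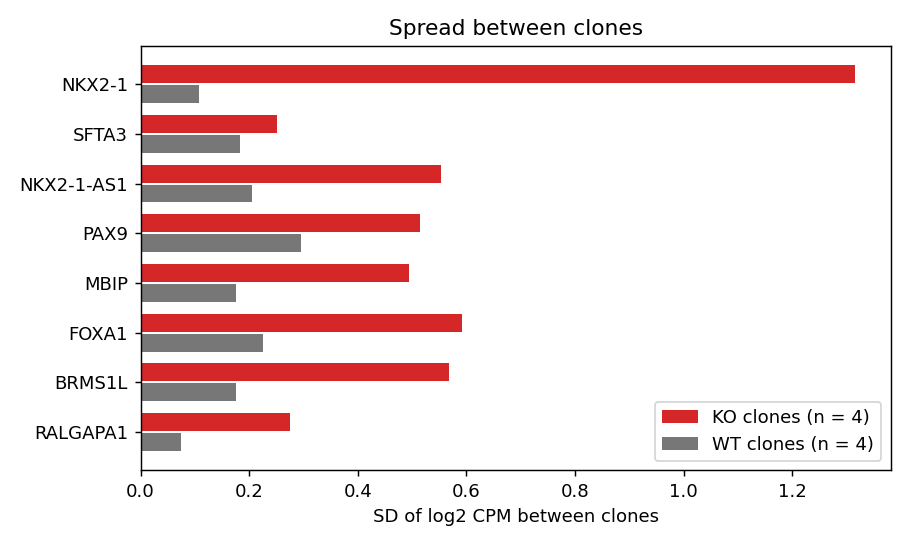
SD of log2 CPM between clones (horizontal axis) for the 8 tested genes, with red bars for the 4 KO clones and grey bars for the 4 WT clones. The red bar of NKX2-1 reaches 1.32 and its grey bar 0.11, and the next longest red bar, that of FOXA1, reaches 0.59.

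The transcripts that overlap or adjoin NKX2-1 were rare, with at most 31 counts in any clone. SFTA3 had 30, 2, 13 and 10 counts in C12, C15, S04 and S36, which is 1.16, 0.807, 0.785 and 0.764 CPM, against 22, 20, 31 and 28 counts in WT10, WT13, WT28 and WT30, or 1.17, 1.05, 1.46 and 1.24 CPM. C15, S04 and S36 lay below all WT clones, and C12 lay within their range. The means were 0.878 ± 0.187 CPM in KO clones and 1.23 ± 0.174 CPM in WT clones (SD, n = 4 each), and the exact two-sided permutation test gave p = 0.0571. NKX2-1-AS1 had 18, 1, 19 and 12 counts in the KO clones (0.695, 0.404, 1.15 and 0.917 CPM), against 18, 22, 22 and 31 in the WT clones (0.958, 1.15, 1.04 and 1.38 CPM). C12, C15 and S36 lay below all WT clones, and S04 lay among them, with p = 0.114 in the exact permutation test. In C15 both transcripts were under the 3 counts that a count of 0 allows, so a change there was not detectable at this depth.

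Ratios within a library, which need no scaling between libraries, were compared next. NKX2-1 had 61.2, 11.4, 103 and 41.7 counts per SFTA3 count in C12, C15, S04 and S36, against 47.1, 58.8, 36.1 and 42.9 in WT10, WT13, WT28 and WT30 (0.5 added to each count), with the limit on SFTA3 counts given above. C12 and S04 stood above all WT clones, C15 below all, and S36 among them. In the sparsest library, C15, the 95% interval was 3.53 to 121, which takes in every other value. NKX2-1 had 101, 19.0, 71.1 and 35.0 counts per NKX2-1-AS1 count in the KO clones, against 57.3, 53.6, 50.5 and 38.8 in the WT clones. The exact two-sided permutation test over the 4 and 4 clones gave p = 0.886 for each of these ratios. Against the summed counts of MBIP, BRMS1L and RALGAPA1, broadly expressed neighbours, NKX2-1 stood at 1.70, 0.305, 1.605 and 1.15 in C12, C15, S04 and S36, and at 1.34, 1.54, 1.38 and 1.605 in the WT clones. The 95% interval of C15, 0.190 to 0.464, lay below the value of every other clone. The exact permutation test of this ratio gave p = 0.486. The summed neighbours were not constant themselves. Over the WT clones, MBIP had a log2 fold change of 0.79 in S04 and BRMS1L of -1.08 in S36. In those clones the ratio therefore does not follow NKX2-1 alone.

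Of the other endodermal transcription factors, FOXA1 and PAX9 were present at low levels and NKX2-8 was not detected. NKX2-8 had 0 counts in all 8 clones, which still allows a level of 3 counts in each. FOXA1, which opens closed chromatin for other factors, was at 6.64, 8.48, 16.2 and 6.88 CPM in C12, C15, S04 and S36, against 8.62, 7.03, 5.85 and 7.06 CPM in WT10, WT13, WT28 and WT30. S04 alone lay outside the WT range on the high side, with a log2 fold change of 1.19 over the WT clones (edgeR adjusted p = 0.0037, SE 0.23). Over the 4 KO clones the log2 fold change was 0.43 (edgeR adjusted p = 0.535, SE 0.31). Without S04 it was 0.0061. PAX9 was at 3.09, 2.83, 5.31 and 2.22 CPM in the KO clones, against 3.57, 2.47, 2.17 and 2.89 CPM in the WT clones. S04 was again the only clone above the WT range. Its log2 fold change of 0.94 (SE 0.33) missed the threshold (edgeR adjusted p = 0.0512), whereas limma-voom gave an adjusted p of 0.0378. Over the edgeR and DESeq2 alternatives that p ran between 0.0350 and 0.204. Over the 4 KO clones PAX9 had a log2 fold change of 0.31 (edgeR adjusted p = 0.694, SE 0.33).

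The remaining neighbours encode proteins of chromatin, signalling and metabolism. MBIP, a subunit of the ATAC histone acetyltransferase complex, was at 16.7, 12.1, 25.7 and 12.7 CPM in C12, C15, S04 and S36, against 16.6, 15.3, 15.2 and 12.4 CPM in WT10, WT13, WT28 and WT30. S04 stood well above the WT clones (log2 fold change 0.79, edgeR adjusted p = 0.0086, SE 0.18), and the other KO clones lay in or next to their range. BRMS1L, a subunit of the SIN3-HDAC deacetylase complex, was at 11.6, 7.67, 12.7 and 5.35 CPM in the KO clones, against 12.5, 12.3, 11.04 and 9.55 CPM in the WT clones. It was lower in S36 (log2 fold change -1.08, edgeR adjusted p = 0.0095, SE 0.25), and C15, at -0.56 (SE 0.32), was not called. RALGAPA1, the catalytic subunit of a complex that switches off Ral GTPases, was at 13.97, 17.8, 13.8 and 11.1 CPM in the KO clones, against 13.1, 13.3, 12.7 and 11.9 CPM in the WT clones, the smallest WT spread of the 8 on the log2 scale. C12, C15 and S04 lay above all WT clones and S36 below all. It was called in none of the 4 KO clones. SLC25A21, which carries 2-oxoadipate across the mitochondrial membrane, had 0, 2, 9 and 6 counts in the KO clones and 1, 1, 5 and 4 in the WT clones. Summed over the group and scaled by depth that is 2.17 times as much in KO as in WT clones, with a 95% interval of 0.960 to 5.13 for counting error alone. Over the 4 KO clones the log2 fold changes were 0.20 for MBIP (edgeR adjusted p = 0.740, SE 0.24), -0.25 for BRMS1L (SE 0.27, adjusted p = 0.694) and 0.13 for RALGAPA1 (SE 0.18, adjusted p = 0.781).

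Per kilobase of exon, NKX2-1 had the highest mean level of the 10 locus genes in both groups. It averaged 15.8 ± 10.6 RPKM in KO clones and 18.0 ± 1.39 RPKM in WT clones (RPKM, the CPM divided by the kilobases of all annotated exons; SD, n = 4 each). In WT clones MBIP followed at 4.30 ± 0.507 RPKM, then BRMS1L at 2.91 ± 0.345, FOXA1 at 1.79 ± 0.285, RALGAPA1 at 0.894 ± 0.0454, NKX2-1-AS1 at 0.638 ± 0.103, PAX9 at 0.459 ± 0.1002 and SFTA3 at 0.396 ± 0.0558 RPKM. SLC25A21 came last of the detected genes, at 0.0351 RPKM. Neighbours in that order did not overlap between WT clones, except NKX2-1-AS1 with PAX9 and PAX9 with SFTA3. In KO clones the order was the same down to MBIP, after which FOXA1 (2.40 ± 1.14 RPKM) and BRMS1L (2.39 ± 0.877 RPKM) were level. Most neighbours in the KO order overlapped, and only BRMS1L with RALGAPA1 and SFTA3 with SLC25A21 did not, leaving NKX2-8 aside. In C15 the level of NKX2-1, 3.57 RPKM on 28 counts, lay close to that of MBIP, 3.49 RPKM on 30 counts. With the length of the principal transcript in place of all exons, that order turned in C15, to 4.83 RPKM for NKX2-1 and 7.35 RPKM for MBIP, while NKX2-1 stayed above MBIP in the other 7 clones.

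**Figure D4:**
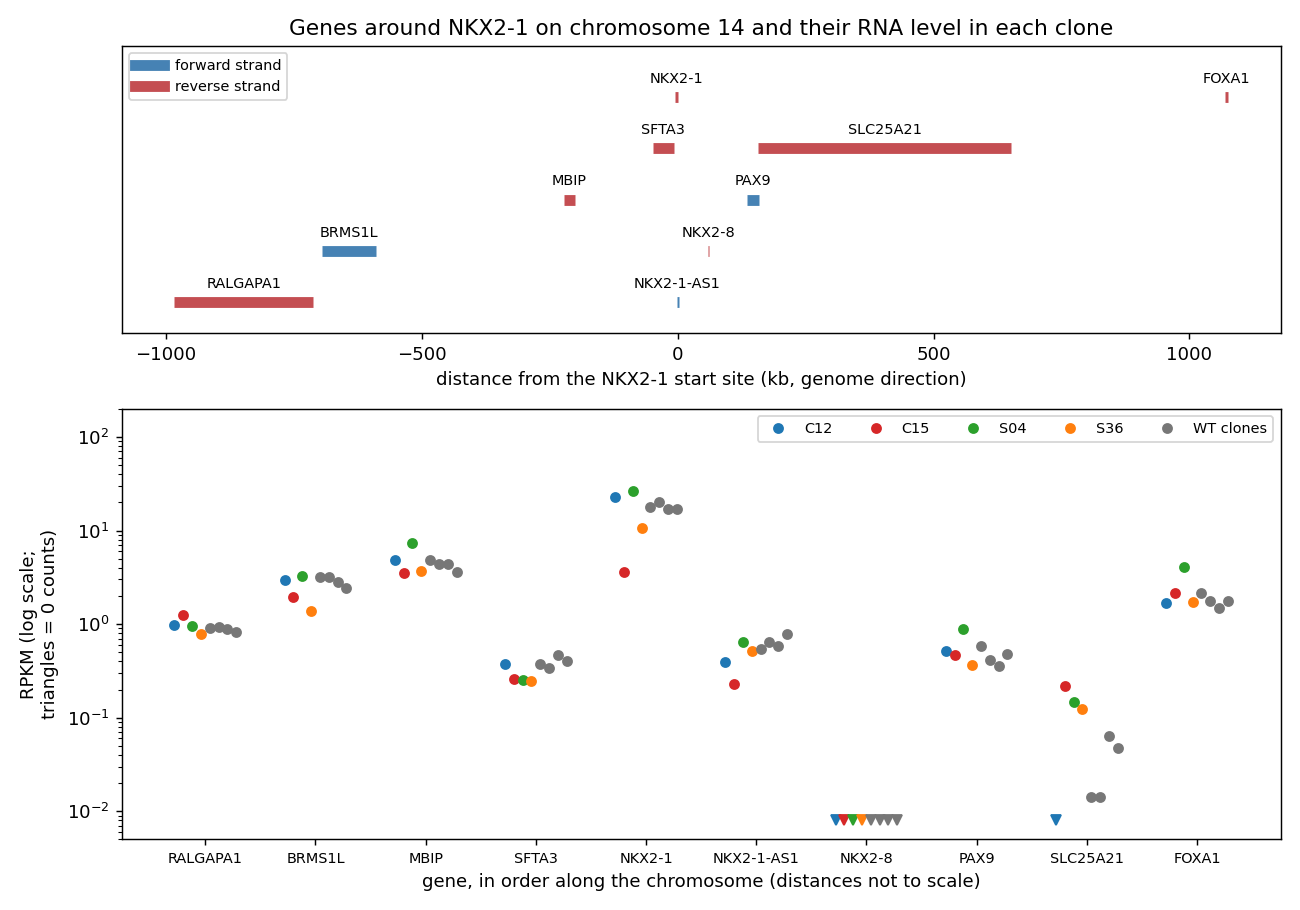
Upper panel: the 10 genes drawn to scale by distance from the NKX2-1 start (horizontal axis, kb), blue for the forward and red for the reverse strand. Lower panel: RPKM (log axis) of each gene in C12, C15, S04, S36 and the WT clones, with triangles for 0 counts. NKX2-1 averages 15.8 RPKM in KO clones and 18.0 RPKM in WT clones, and in C15 it lies beside MBIP, at 3.57 and 3.49 RPKM, an order that turns with the length of the principal transcript.

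The genes around NKX2-1 had a median near the WT level in C15, where NKX2-1 was lowest, and a lower median in S36. The 33 tested genes within 5 Mb of NKX2-1, the 10 locus genes left out, had median log2 differences from the WT mean of 0.011, -0.080, -0.048 and -0.34 in C12, C15, S04 and S36. The same median in the WT clones, each set against the other 3, lay between -0.070 and 0.050 (SD 0.056). On this pooled median S36 stood apart from every other clone. The 2 sides of the window differed. For the 9 genes of higher coordinates the medians were 0.18, -0.29, 0.48 and -0.76 in C12, C15, S04 and S36. The WT clones lay between -0.27 and 0.19 there. For the 24 of lower coordinates the medians were -0.022, 0.016, -0.12 and -0.31, with WT clones between -0.0057 and 0.041. NKX2-1 differed from the median of its whole window by 0.33, -2.24, 0.61 and -0.42 on the log2 scale in C12, C15, S04 and S36. No test was made of these medians, since neighbouring genes are not replicates.

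The lower level in S36 reached beyond the window. In 10 Mb bins its median log2 difference was -0.42 between 20 and 30 Mb (67 genes), -0.32 between 30 and 40 Mb (40 genes), -0.56 between 40 and 50 Mb (24 genes) and -0.18 between 50 and 60 Mb (68 genes). It was 0.045 between 60 and 70 Mb (57 genes), and 0.0092 over the 13300 genes of the other chromosomes. The 10 genes lie between 30 and 40 Mb, where the medians of the other KO clones were 0.0017 in C12, -0.037 in C15 and -0.12 in S04. BRMS1L in S36 was below the window median by 0.72 on the log2 scale, whereas FOXA1, MBIP and RALGAPA1 were above it by 0.30, 0.12 and 0.14. The part of the shift along chromosome 14 in the S36 results was not tested.

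Among the 20 protein-coding neighbours tested within 5 Mb, the lowest median differences over the KO clones were those of AKAP6 (-0.69), SPTSSA (-0.52) and NFKBIA (-0.50), the last an inhibitor of NF-kB. The highest were those of EGLN3 (0.77), an oxygen-sensing hydroxylase, TRAPPC6B (0.20) and PRORP (0.19). EGLN3 stood at 0.76, 0.78, 2.88 and -3.13 in C12, C15, S04 and S36. In WT clones it ran between -1.37 and 1.73, and AKAP6 between -0.85 and 1.35. In 15 of the 20 the median over the KO clones was negative. Only 3 were negative in all 4 KO clones and 1 was positive in all 4. The like shares over all genes were not computed. When NKX2-1 was ranked among 27 coding genes of the window, locus genes included, it was the second lowest in C15, above TRAPPC6B (-2.82), and it ranked 8 from the lowest in S36. It ranked 19 from the lowest in S04 and 25 in C12.

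**Figure D5:**
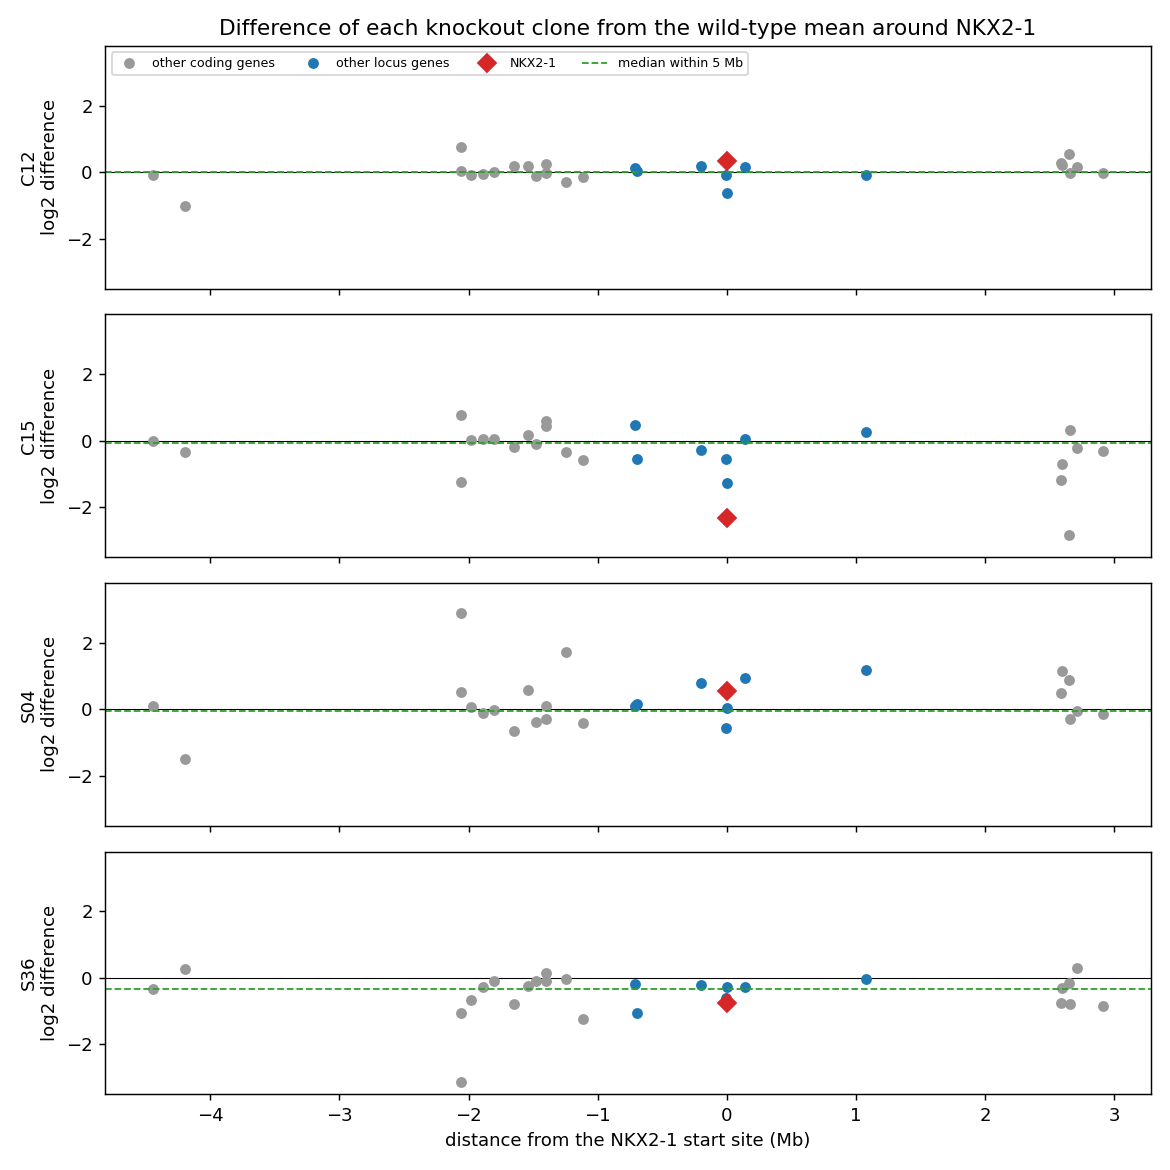
Log2 difference of each KO clone from the WT mean (vertical axis) for genes within 5 Mb of NKX2-1, by distance from its start (horizontal axis, Mb). NKX2-1 is the red diamond, other locus genes are blue, other coding genes grey, and the green dashed line is the median of the 33 other tested genes. The diamond lies 2.24 below the line in C15 and 0.42 below it in S36, and the line itself stands at -0.34 in S36.

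The genes whose level followed NKX2-1 most closely over the 8 clones lay on other chromosomes. Among 9138 genes with a mean of at least 5 CPM, the highest Pearson correlations of log2 CPM with NKX2-1 were those of INTS14 (0.996), CCDC90B (0.996), UBE2T (0.994), SYVN1 (0.994) and NOX1 (0.993). UBE2T, a ubiquitin-conjugating enzyme of the Fanconi anaemia pathway, was at 103, 16.1, 152 and 48.4 CPM in C12, C15, S04 and S36, against 91.1, 100.3, 87.4 and 77.7 CPM in WT10, WT13, WT28 and WT30. The lowest were ARMC6 (-0.991), RPS3 (-0.987), a protein of the small ribosomal subunit, and LRRC61 (-0.978). These correlations describe 8 libraries, in which C15 is both the shallowest and the lowest in NKX2-1, and 625 of the genes passed 0.9. In C15, SYVN1 and NOX1 stood at 0.404 CPM each, under the 1.21 CPM of 3 counts there, and INTS14 at 2.02 CPM. Without C15 and S36, the clones farthest from the median of NKX2-1, the correlations became 0.927 for INTS14, 0.975 for CCDC90B, 0.937 for UBE2T, 0.916 for SYVN1, 0.880 for NOX1, -0.922 for ARMC6, -0.975 for RPS3 and -0.759 for LRRC61. Over all 8 clones, 4 other locus genes that reached the 5 CPM had correlations of 0.669 for BRMS1L (rank 1889), 0.665 for MBIP (rank 1913), 0.154 for FOXA1 (rank 4040) and -0.54 for RALGAPA1 (rank 7196). Without C15 and S36 these became 0.578 for BRMS1L, 0.849 for MBIP, 0.724 for FOXA1 and 0.803 for RALGAPA1, so the sign for RALGAPA1 turned and its value over 8 clones rests on those 2.

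The gene families of the locus transcription factors, with the locus genes themselves counted in, were mostly rare or not detected. Of 14 NKX genes, NKX2-1 included, 9 had 0 counts in every clone, NKX2-8 among them. Of 12 FOXA and PAX genes 4 were tested, and none was called between KO and WT clones. These were FOXA1 and PAX9 of the locus, given above, with PAX6 and PAX8. PAX6, a factor of eye and brain, averaged 14.4 ± 5.51 CPM in KO clones and 19.8 ± 3.38 CPM in WT clones (SD, n = 4 each; log2 fold change -0.52, edgeR adjusted p = 0.346, SE 0.25).

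Among proteins that work with the products of the locus genes, none other was called between KO and WT clones by edgeR or limma-voom. Of the 17 tested of 22 proteins reported to act with NKX2-1, 0 were called by edgeR or limma-voom and 1 by DESeq2, while 4 had an unadjusted p under 0.05, and the median was -0.032 (log2 fold change). Among all genes, edgeR called 0.316%, limma-voom 0.66% and DESeq2 3.6%, and 15.5% had an unadjusted p under 0.05, shares that apply to each list below as well. TLE1, a corepressor, was at 16.9, 17.0, 32.8 and 18.7 CPM in C12, C15, S04 and S36 and at 11.2, 11.3, 12.1 and 9.501 CPM in WT10, WT13, WT28 and WT30. The groups did not overlap, as in 10.1% of all genes, and its log2 fold change was 0.97 (edgeR adjusted p = 0.118, SE 0.24, DESeq2 adjusted p = 0.0109). EP300, a histone acetyltransferase, had -0.35 (adjusted p = 0.216) and STAT3, a cytokine-activated factor, 0.44 (adjusted p = 0.233).

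Beside those shares of all genes (15.5% at an unadjusted p under 0.05, 3.6% by DESeq2), the lists of the other neighbours were as follows. In the ATAC complex of MBIP, all 14 subunits were tested, 0 were called by edgeR, DESeq2 or limma-voom, and 2 had an unadjusted p under 0.05. These were the acetyltransferase KAT2A (log2 fold change 0.41, edgeR adjusted p = 0.200) and TADA3 (0.41, adjusted p = 0.286), and the median was 0.048. In the SIN3-HDAC complex of BRMS1L, 0 of 16 were called by edgeR or limma-voom, 1 by DESeq2, and 2 had an unadjusted p under 0.05. SAP30 had the smallest p (log2 fold change 0.51, edgeR adjusted p = 0.152, DESeq2 adjusted p = 0.0417), and the median was -0.0083. Among Ral GTPases and their regulators, 0 of 12 tested were called by any of the 3 tools and 1 had an unadjusted p under 0.05. That was RALGAPB, the partner subunit of RALGAPA1, at 31.7 ± 1.36 CPM in KO clones and 41.5 ± 2.84 CPM in WT clones (SD, n = 4 each; log2 fold change -0.39, edgeR adjusted p = 0.200, SE 0.13). The median of these 12 was -0.13. In lysine and 2-oxoadipate breakdown, the pathway of SLC25A21, 0 of 9 tested were called by edgeR or limma-voom, 1 by DESeq2, and 3 had an unadjusted p under 0.05, with a median of -0.095. AADAT, which makes 2-oxoadipate from 2-aminoadipate, had a log2 fold change of 1.11 (edgeR adjusted p = 0.190, SE 0.36, DESeq2 adjusted p = 0.0484). AASS, the first enzyme of the route, had -0.41 (edgeR adjusted p = 0.249).

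Several surfactant genes that NKX2-1 serves in the lung were not detected. Of 16 markers of lung and thyroid epithelium, 7 had 0 counts in all 8 clones, namely the surfactant genes SFTPA1, SFTPA2, SFTPC and SFTPD, the secretoglobins SCGB1A1 and SCGB3A2, and EPCAM, an epithelial adhesion molecule.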

How the data were processed

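RNA sequencing was analysed from the counts per gene that the authors deposited, 1 table with 1 column per clone, whole numbers and not normalised. The build was hg38 and the tools TopHat2, Subread, SAMtools and FastQC, per the submitters' processing notes. What each tool did, its version and the gene annotation are not stated in the sources used here. The 10 genes, the gene lists and the motifs were chosen with earlier results of these data known.

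Of 61228 symbols, 56918 were matched to GENCODE 29 for position and length. Genes were filtered with filterByExpr (14243 left), scaled by TMM and compared with the two-sided edgeR 4.0.16 quasi-likelihood test (in R 4.3.3). P-values were adjusted by Benjamini-Hochberg over the tested genes. Fits had 2 groups, 5 groups (each KO clone on its own) or 3 groups (C, S and WT). DESeq2 1.42.0 and limma-voom (limma 3.58.1) were alternatives. Adjusted p-values that DESeq2 left undefined stayed out. Log2 CPM used a prior count of 2, single values an exact permutation test, and intervals of counts the exact Poisson method. From the lists, up to 3 genes by smallest p were named, and for likeness to NKX2-1 the 5 highest and 3 lowest. The scripts were tested on simulated counts. Total counts ran between 2730285 and 25423215 per clone. No pair of libraries agreed within sampling noise, with chi-square per degree of freedom at least 29.5 between KO clones and 13.8 between WT clones. Some genes that the rule names are not reported here.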

Additional observations from a re-analysis of the deposited data

Results flagged for a closer look

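One clone stood far from the others of its group: SFTA3 in C12, at a log2 CPM of 0.35, was above the other KO clones, with 0.87 of the group's range between it and the next. C12 lay within the range of the WT clones. In all, 22 groups of 4 clones were looked at and 1 far clone was found, where chance gives about 1.1.

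Pairs of KO clones with the same letter differed from each other in 5 cases, all tested in the edgeR fit that takes its spread from WT clones. NKX2-1 differed by a log2 value of -2.67 for C15 over C12 (adjusted p = 0.000503). For S36 over S04 the log2 values were -1.32 for NKX2-1 (adjusted p = 0.0013), -1.02 for MBIP (adjusted p = 0.0183), -1.24 for FOXA1 (adjusted p = 0.0236) and -1.24 for BRMS1L (adjusted p = 0.0168). C15 is the shallowest library and S36 is lower over much of chromosome 14, and the part of either in these differences was not tested.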

How the results depend on the processing

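The alternatives were RLE factors, no low-count filter, DESeq2, limma-voom, no mitochondrially encoded genes and each clone left out. C-named or S-named clones only were used for KO over WT alone. Over the alternatives of each comparison, the number of locus genes called stayed at 0 for KO over WT, C over S and C12. It stayed at 1 for C15 and 2 for S36. For S04 it was 3 or 4, as PAX9 crossed the threshold with limma-voom, with RLE factors, without S36 and without WT10. The log2 fold change of NKX2-1 for KO over WT turned to 0.031 with S-named clones only and ran from -0.48 to 0.14 with 1 clone left out. Left-out clones moved its log2 ratio between -0.57 and 0.49 to SFTA3, between -0.45 and 0.35 to NKX2-1-AS1 and between -0.83 and 0.0013 to the 3 neighbours, and a pseudocount of 0.1 gave 0.024 for NKX2-1-AS1. Within 2 Mb (19 genes) the window medians of C15, S04, S36 and WT28 became 0.060, -0.12, -0.27 and 0.036, and within 10 Mb that of C15 became -0.17. The cause of these shifts was not tested.

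Other values that changed sign were small, except several of C over S with 1 clone left out. The small ones included MBIP with C-named clones only (-0.0061) and RALGAPA1 with S-named clones only (-0.048). Without the filter they included PAX9 in C15 (-0.069) and NKX2-1-AS1 in S04 (-0.035). With 1 clone left out, KO over WT ran from -0.034 to 0.49 for PAX9 and from -0.082 to 0.33 for MBIP. BRMS1L in C12 ran from -0.049 to 0.086, PAX9 in C15 from -0.076 to 0.16, NKX2-1-AS1 in S04 from -0.064 to 0.12 and FOXA1 in S36 from -0.14 to 0.042. C over S ran from -0.31 to 0.93 for BRMS1L, -2.38 to 0.45 for NKX2-1, -0.81 to 0.44 for PAX9, -0.77 to 0.24 for MBIP and -1.16 to 0.080 for FOXA1. Mean log2 CPM differences ran from -0.91 to 0.040 for NKX2-1, -0.022 to 0.38 for PAX9 and -0.11 to 0.24 for MBIP. The unadjusted exact permutation p fell to 0.0286 for SFTA3 and SLC25A21 without C12, NKX2-1-AS1 without S04 and RALGAPA1 without S36. In each case the clone left out was the KO clone that lay within the WT range or on the other side of it. Calls over all genes for KO over WT were 45, and became 581 without the filter, 513 by DESeq2, 94 by limma-voom, 6 with C-named and 2211 with S-named clones only, and 3 to 456 with 1 clone left out. For C12 they were 119, and 676 without the filter, 235 by DESeq2 and 40 to 284 with 1 clone left out. For C over S they were 51, and 14 with RLE factors, 762 without the filter, 626 by DESeq2 and 0 to 749 with 1 clone left out.

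Per kilobase of principal transcript, BRMS1L (3.51 RPKM) stood above FOXA1 (3.34 RPKM) in KO clones, SFTA3 (0.804 RPKM) above PAX9 (0.728 RPKM) in WT clones, and MBIP (7.35 RPKM) above NKX2-1 (4.83 RPKM) in C15. No paired analysis was possible because the labels give the clones no shared replicate numbers. Depth limits SFTA3, NKX2-1-AS1 and SLC25A21 most, above all in C15.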
